A study of Mus musculus with 8 samples.

Results

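Serpins are a superfamily of protease inhibitors and related proteins that share one fold, and their mouse genes were followed here in the livers of mice labelled as knockouts of the cytosolic malic enzyme gene, Me1. The members were all probes whose annotated symbol, brought up to date, starts with Serpin followed by a letter from a to i and a number. This gave 54 of the 39556 probes of the array and, with probes of one symbol averaged, 52 of 19896 named genes. Clade A had 21 of them, clade B 21, clades E, F and I 2 each, and clades C, D, G and H 1 each. Another 17 Serpin symbols of the gene table had no probe under such a name and were not analysed here, among them Serpina1c and Serpina3m.

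Total RNA came from the livers of 3 mice labelled Mod1 KO, Mod1 being the older name of Me1 (numbers 27, 31 and 33), and of 5 littermates labelled Mod1 WT (numbers 14, 15, 21, 22 and 26). Each mouse was hybridised on 2-colour arrays against pooled RNA of 5 wild-type livers, so a value is a log2 ratio of that mouse to the pool, and 0 means the level of the pool. Whether the pool held the same 5 mice, how the Me1 allele was altered, and the strain, sex, age and diet of the mice stand in none of the sources used here. A ratio does not tell how abundant a transcript is, so levels of different genes cannot be compared and the hepatocyte origin of the RNA cannot be read from marker levels. The median ratio of 7 hepatocyte markers lay between 0.01 and 0.06 in knockout livers and between -0.06 and 0.15 in wild-type livers.

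Most serpins inhibit serine or cysteine proteases by a suicide mechanism: the protease cuts an exposed loop of the serpin, the loop inserts into a sheet of the protein, and the trapped protease is inactivated. The liver secretes many clade A members and the clotting, fibrinolysis and complement inhibitors of clades C, D, F and G into plasma. Clade B members lack a classical signal peptide and act mostly inside cells, and some serpins, such as the hormone carriers and a collagen chaperone, do not inhibit proteases at all.

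Direction and depth set limits on every value. The base of the logarithm and the direction (mouse over pool) were inferred from the wild types, whose mean linear ratio over the 300 most variable probes had a median of 0.999 when read that way, against 1.33 with the opposite direction and 0.968 if the values were log2. That check assumes that the pool held these 5 wild types, which is not known. The log2 reading also lay close to 1, so the base is less clear than the direction. The check does not reach the knockout arrays. Correlations below -0.3 over the whole probe set were seen between 3 pairs of arrays: wild types 22 and 26 (r = -0.459), knockout 33 with wild type 14 (r = -0.394), and wild types 14 and 22 (r = -0.322). Since the check does not reach the knockout arrays, their direction is not settled, and counts are also given with their sign turned. The correlations do not decide it. Those among the knockout arrays were 0.420, 0.440 and 0.622, and a shared turn of sign would leave them unchanged. The probe for Me1 gave ratios of 0.82, -0.81 and -0.68 in the knockouts and of 0.82, -0.64, -0.70, -1.73 and 0.70 in wild types 14, 15, 21, 22 and 26, so the groups overlapped, and whether the probe lies in the altered part of the gene is not known. The spread (SD) over all probes was 0.18 to 0.27 in knockout arrays and 0.13 to 0.29 in wild-type arrays, widest in wild type 22. The number of arrays limits the precision.

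In the family as a whole, 33 members had a higher mean ratio in knockout than in wild-type livers and 19 a lower one. The median difference, knockout minus wild type, was 0.05 on the log2 scale, with a range from -0.90 to 1.61, beside a median of 0.01 over all 36169 features (19896 named genes and the probes without a name) and of -0.00029 over named genes. None of the 52 passed an adjusted p of 0.05 in limma with Benjamini-Hochberg adjustment over all features, where 10 features (0.0276%) did. The lowest adjusted p of the family was 0.42. At an unadjusted p of 0.05, 5 members passed, 2 higher (Serpinc1 and Serpinb9f) and 3 lower (Serpina3g, Serpinb9 and Serpinb1c), which is 9.62% of the family beside 9.28% of all features (4.26% higher and 5.02% lower) and 11.3% of named genes. All knockout values lay outside the wild-type range for 3 members, 2 above and 1 below, or 5.77% beside 7.21% of all features (4.35% above and 2.85% below) and 7.65% of named genes. Both shares are close to the background. With knockout ratios of opposite sign, 17 members were higher and 35 lower with a median of -0.06, 7 passed the unadjusted threshold (background 11.5%) and 6 did not overlap (background 10.8%).

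These counts depended on single mice. Without wild type 22, 15 of the 52 members passed an unadjusted p of 0.05, 11 higher and 4 lower. That is a larger share than the 16.2% of all features that passed. Without wild type 14, without wild type 21 or without knockout 33 the count was 2 each time. These are smaller shares than the 5.97%, 9.62% and 4.73% of all features. Groups that did not overlap numbered between 4 and 11 with 1 mouse left out, the highest without wild type 22 (16.1% of all features). There were 5 each without wild types 14 or 21 (8.13% and 11.4% of all features) and 8 each without knockouts 27 or 31 (17.3% and 12.3%), so these counts lay near their backgrounds. In every one of these fits 0 members passed an adjusted p of 0.05.

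**Figure D1:**
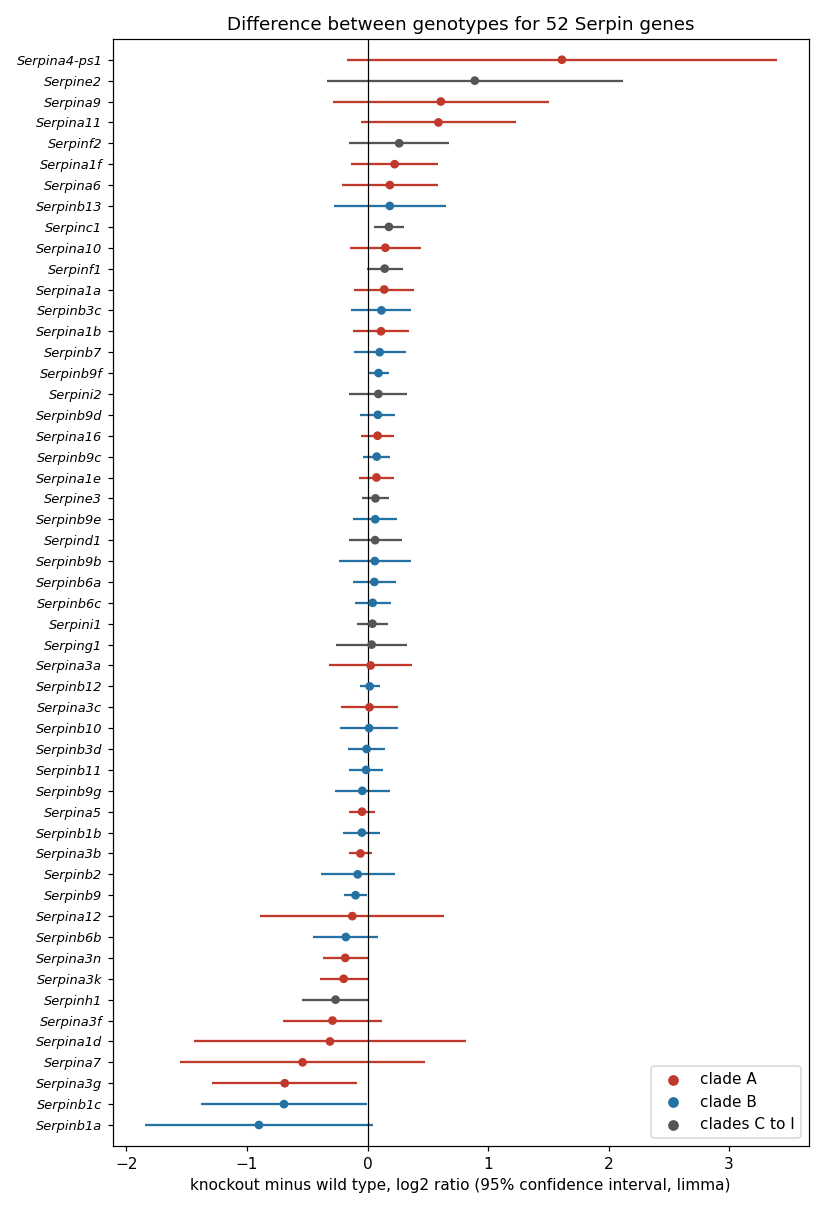
Knockout minus wild-type difference of the log2 ratio (x axis) for each of the 52 Serpin genes (rows, ordered by the difference), with points for the estimate and lines for the 95% confidence interval of the limma fit, coloured by clade. Differences run from -0.90 in Serpinb1a to 1.61 in Serpina4-ps1; the intervals of 5 genes, Serpinc1, Serpinb9f, Serpinb9, Serpinb1c and Serpina3g, leave out 0, with no adjustment for the number of genes.

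Large differences were more frequent than small p-values. A difference beyond 0.5 in either direction was seen in 8 members, 15.4% of the family, beside 2.1% of all features and 2.86% of named genes. These 8 were Serpina4-ps1, Serpine2, Serpina9 and Serpina11 on the higher side and Serpinb1a, Serpinb1c, Serpina3g and Serpina7 on the lower side. With knockout ratios of opposite sign 6 members lay beyond 0.5, without Serpine2 (-0.32) and Serpina11 (-0.44), beside 2.36% of all features. The same family also varied widely among wild-type livers: the median SD over the 5 wild types was 0.17 in Serpins and 0.11 in all named genes, and 34 of 52 members lay above that second value. In clade A, 15 of 21 members exceeded it, with a clade median of 0.20, and in clade B 13 of 21, with a clade median of 0.13. Wide spread was not particular to Serpins. The median SD was 0.20 in 25 genes listed as other protease inhibitors and 0.17 in 19 listed as target proteases in plasma. In 16 regulators of liver serpins it was 0.26. It was 0.18 in 16 clearance, cofactor and folding genes and 0.07 in 14 target proteases of leukocytes and cells. In the same order, 8%, 10.5%, 12.5%, 6.25% and 0% of these lists differed by more than 0.5.

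**Figure D2:**
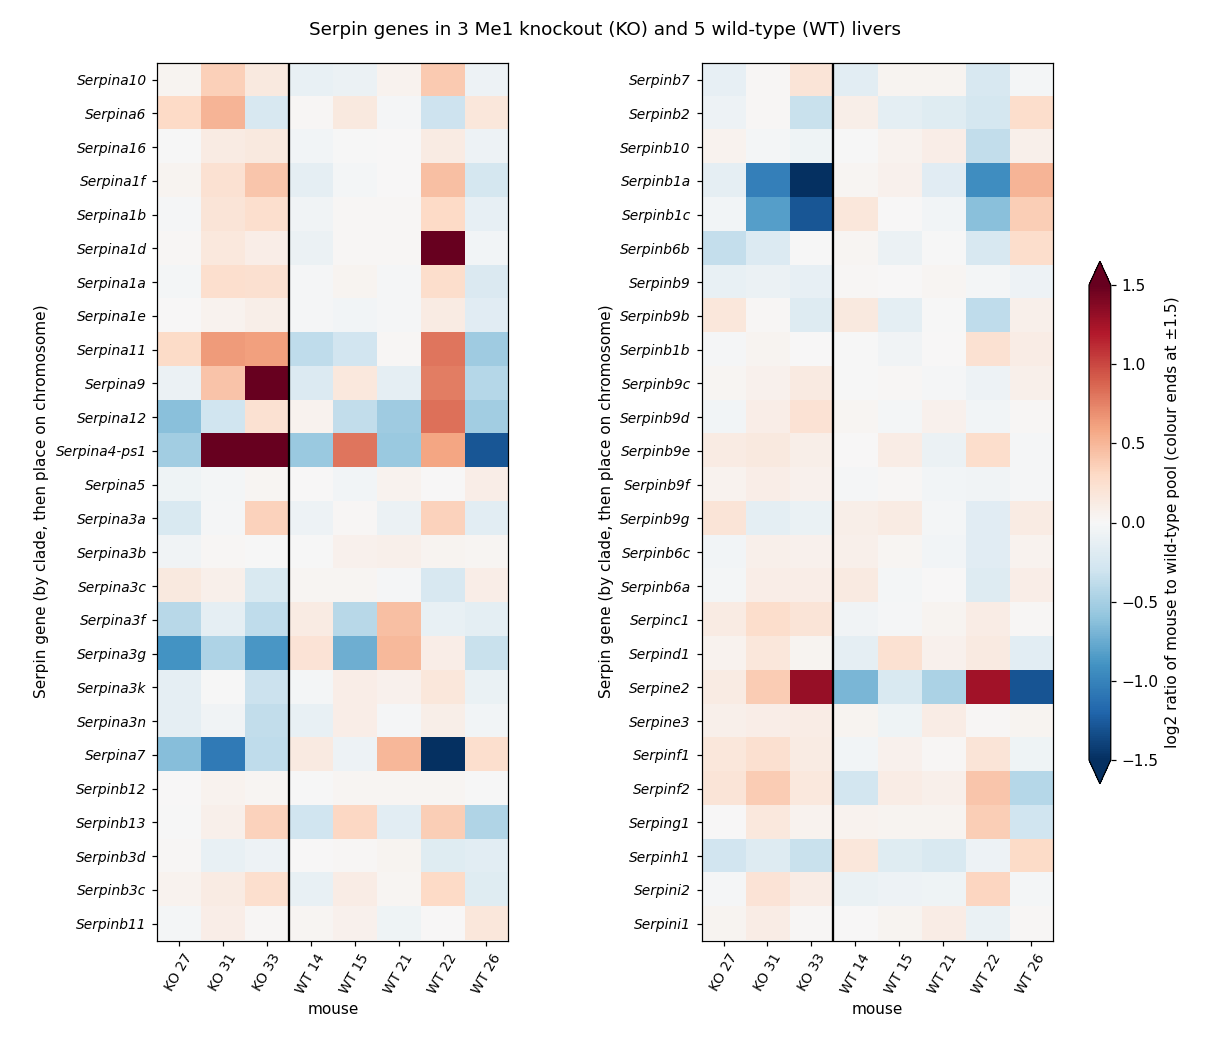
Log2 ratio to the wild-type pool (colour, ending at ±1.5) of 52 Serpin genes (rows, by clade and then by place on the chromosome) in 3 knockout (KO) and 5 wild-type (WT) livers (columns). Strong colours fall mostly in KO 31, KO 33 and WT 22, where 6, 7 and 9 genes lie beyond 0.5 in either direction; WT 14 and WT 15 have 2 each.

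The inhibitors of clotting and fibrinolysis held the member with the lowest p. Serpinc1 encodes antithrombin, the plasma inhibitor of thrombin and factor Xa that heparin accelerates. Its ratios were 0.12, 0.27 and 0.20 in knockouts 27, 31 and 33, and -0.05, -0.01, 0.04, 0.11 and 0.02 in wild types 14, 15, 21, 22 and 26. All 3 knockouts lay above all 5 wild types, with a gap of little more than 0.01 between knockout 27 (0.124) and wild type 22 (0.110), and this order ended when each array was centred on its median. The means were 0.20 ± 0.07 (SD, n = 3) in knockout and 0.02 ± 0.06 (SD, n = 5) in wild-type livers, a difference of 0.18 ± 0.05 (SE) or 1.13-fold, with an adjusted p of 0.42 by limma. By exact permutation of the genotypes (two-sided, 56 splits) p was 0.0179, the smallest it can give, with no adjustment. Serpinc1 was singled out by its low p in the same data, so this value is no separate support. The difference stayed between 0.14 and 0.21 with any 1 mouse left out, and it was -0.22 with the knockout ratios turned round in sign.

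Serpine2, protease nexin-1, a cell-bound inhibitor of thrombin and plasminogen activators, had the second largest positive difference but also one of the widest spreads. Its ratios were 0.12, 0.38 and 1.31 in knockouts 27, 31 and 33, and -0.69, -0.23, -0.47, 1.26 and -1.29 in wild types 14, 15, 21, 22 and 26. Wild type 22 thus lay among the knockouts, and the other 4 wild types below all of them. The difference was 0.89 ± 0.53 (adjusted p = 0.636 by limma), 1.28 without wild type 22 (adjusted p = 0.157) and 0.54 without knockout 33. Serpinf2, the plasmin inhibitor alpha-2-antiplasmin, had ratios of 0.16 to 0.38 in knockout livers and of -0.43 to 0.41 in wild-type livers, with wild type 22 highest of all 8 mice (difference 0.26 ± 0.18). Its neighbour on chromosome 11, Serpinf1, encodes PEDF, a secreted serpin without inhibitory activity that restrains blood vessel growth. Serpinf1 stood at 0.17, 0.24 and 0.12 in the knockouts and at -0.04, 0.06, 0.02, 0.19 and -0.07 in wild types 14, 15, 21, 22 and 26. Only wild type 22 lay within the knockout range (difference 0.14 ± 0.06, adjusted p = 0.549 by limma).

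The other plasma inhibitors of these cascades differed by less than their spread. Serpina10, which inhibits factor Xa together with protein Z, gave 0.15 ± 0.13 (difference and SE). Serpind1, heparin cofactor II, gave 0.06 ± 0.10. Serping1, the C1 inhibitor of complement and the contact system, gave 0.03 ± 0.13 with wild types 26 and 22 at -0.30 and 0.36, both outside the knockout range of 0.01 to 0.16.

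A list of target proteases, most but not all of them plasma proteins, was set beside these inhibitors. Of 21 listed, 19 were measured, 13 higher and 6 lower in the knockout with a median difference of 0.07, and 4 (21.1%, beside 9.28% of all features) passed an unadjusted p of 0.05, 3 higher and 1 lower, none an adjusted one. Plat, the tissue plasminogen activator, had ratios of -0.68, -0.65 and -0.73 in the knockouts and 0.21, -0.01, -0.42, 0.11 and 0.43 in wild types 14, 15, 21, 22 and 26. All knockouts lay below all wild types (difference -0.75 ± 0.17, adjusted p = 0.315 by limma). Masp1, a protease of the lectin pathway, stood at 0.31 ± 0.10 and clotting factor F11 at 0.94 ± 0.31. Of 25 genes listed as other protease inhibitors, without a Serpin symbol, 15 were higher and 10 lower with a median of 0.02. Of these, 3 (12%, beside the same 9.28%) passed unadjusted, all higher. Itih2, a heavy chain of the inter-alpha-trypsin inhibitor, had ratios of 0.36, 0.39 and 0.37 in the knockouts against -0.13 to 0.14 in the wild types (difference 0.37 ± 0.07, adjusted p = 0.249 by limma). Kng1, kininogen, followed at 0.20 ± 0.07 and Ahsg, fetuin-A, at 0.24 ± 0.10.

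The alpha-1-antitrypsin genes, Serpina1a to Serpina1e, encode the main plasma inhibitors of neutrophil elastase and their close variants, and Serpina1f is a related neighbour. In mice they form a block of recent duplicates within a cluster on chromosome 12, where 20 of the 21 clade A members lie between positions 103616675 and 104414334 of GRCm38.p6. Sequence likeness is shown here for the bases around the transcription start of 3 copies, because 1 of them behaved differently from the rest in a single mouse. The promoter windows, from RefSeq on GRCm38.p6, run from 250 bases before to 50 after the start on the minus strand, at chr12:103773584-103773883 for Serpina1d, chr12:103863570-103863869 for Serpina1a and chr12:103738140-103738439 for Serpina1b. Capitals in Serpina1a and Serpina1b mark bases with no identical partner in an alignment with Serpina1d, window ends included, and capitals in Serpina1d mark bases with no identical partner in either of the others.
Serpina1d: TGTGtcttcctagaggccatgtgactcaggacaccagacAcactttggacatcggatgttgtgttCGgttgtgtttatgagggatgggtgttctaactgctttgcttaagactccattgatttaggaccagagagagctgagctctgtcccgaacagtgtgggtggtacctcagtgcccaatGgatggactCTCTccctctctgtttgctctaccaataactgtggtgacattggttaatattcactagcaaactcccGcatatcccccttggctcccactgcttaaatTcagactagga
Serpina1a: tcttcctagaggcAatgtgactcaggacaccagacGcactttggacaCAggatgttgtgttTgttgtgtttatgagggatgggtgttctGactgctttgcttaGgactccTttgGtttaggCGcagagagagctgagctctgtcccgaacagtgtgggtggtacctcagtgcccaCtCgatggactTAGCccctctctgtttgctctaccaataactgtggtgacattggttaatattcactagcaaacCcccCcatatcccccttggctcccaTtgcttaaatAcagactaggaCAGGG
Serpina1b: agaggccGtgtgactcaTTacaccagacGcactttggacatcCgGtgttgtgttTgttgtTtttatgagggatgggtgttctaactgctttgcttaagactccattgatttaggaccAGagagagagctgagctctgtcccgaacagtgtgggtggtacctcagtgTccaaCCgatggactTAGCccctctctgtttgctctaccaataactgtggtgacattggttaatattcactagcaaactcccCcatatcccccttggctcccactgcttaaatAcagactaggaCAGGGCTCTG
Of the aligned bases, 92.9% were identical between Serpina1d and Serpina1a, 94.1% between Serpina1d and Serpina1b and 96.2% between Serpina1d and Serpina1e, the last over 238 aligned bases.

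Of the 5 measured members of this block, 4 were higher and 1 lower in the knockout, from -0.31 to 0.22, and none passed an unadjusted p of 0.05. Serpina1d had ratios of 0.01, 0.16 and 0.10 in knockouts 27, 31 and 33, and -0.09, 0.02, 0.01, 2.12 and -0.04 in wild types 14, 15, 21, 22 and 26. One wild-type mouse, 22, was thus more than 4-fold above the pool while the other 7 mice lay between -0.09 and 0.16. In that mouse the other members of the block stood at 0.12 (Serpina1e), 0.26 (Serpina1a), 0.30 (Serpina1b) and 0.45 (Serpina1f). The Serpina1d difference was -0.31 ± 0.49 with all mice and 0.12 without wild type 22, so its direction rested on that mouse.

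Serpina1a, read by 2 probes that differed by 0.20 and 0.07, gave a mean difference of 0.14 ± 0.11. Serpina1b gave 0.11 ± 0.10 and Serpina1e 0.07 ± 0.06. All 5 members lay above the pool in knockouts 31 and 33 and in wild type 22, and all 5 lay below it in wild types 14 and 26. Signal from near-identical copies cannot be assigned to 1 gene without the probe sequences, which were not used here, so the separate values are uncertain.

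Serpina3 genes, on the other end of the same cluster, are the mouse counterparts of human alpha-1-antichymotrypsin, expanded by duplication. Of 7 measured, 5 were lower and 2 higher in the knockout, with a median of -0.19. Serpina3g, known as Spi2A, inhibits lysosomal cathepsins and is expressed in activated lymphocytes and macrophages. Its ratios were -0.90, -0.46 and -0.87 in knockouts 27, 31 and 33, and 0.20, -0.73, 0.49, 0.10 and -0.34 in wild types 14, 15, 21, 22 and 26. Wild type 15 lay among the knockouts and the other 4 wild types above them. The mean was -0.74 ± 0.25 (SD, n = 3) in knockout and -0.06 ± 0.48 (SD, n = 5) in wild-type livers, a difference of -0.69 ± 0.26, 1.61-fold lower (adjusted p = 0.506 by limma). With knockout ratios of opposite sign it was 0.80.

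Serpina3f, its neighbour in the cluster, had ratios of -0.42, -0.14 and -0.38 in the knockouts, and 0.13, -0.41, 0.45, -0.12 and -0.15 in wild types 14, 15, 21, 22 and 26. As in Serpina3g, wild type 15 was the lowest and wild type 21 the highest of the wild types, and both genes had the same sign in 7 of the 8 mice. The other paralogue pairs compared, such as Serpina3n with Serpina3k, also shared their sign in 7 of 8 mice. The Serpina3f difference was -0.29 ± 0.18 (adjusted p = 0.641 by limma), and -0.17 without wild type 21.

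Serpina3n and Serpina3k are secreted by hepatocytes. Serpina3n inhibits granzyme B and leukocyte elastase and belongs to the acute phase proteins. Serpina3k is known as contrapsin. Serpina3n stood at -0.13, -0.05 and -0.36 in knockouts 27, 31 and 33, and at -0.11, 0.10, -0.02, 0.08 and -0.04 in wild types 14, 15, 21, 22 and 26. Serpina3k stood at -0.14, -0.01 and -0.33 in the knockouts, and at -0.03, 0.10, 0.06, 0.17 and -0.10 in wild types 14, 15, 21, 22 and 26. In both genes knockout 33 was the lowest of all mice and knockout 31 lay inside the wild-type range. The differences were -0.19 ± 0.08 for Serpina3n and -0.20 ± 0.09 for Serpina3k, with adjusted p of 0.541 and 0.54 by limma. Without knockout 33 they were -0.09 and -0.11, and without both widest arrays -0.07 and -0.08.

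The promoters of Serpina3f and Serpina3g are shown because both genes had the same lowest and highest wild type and both windows hold TTCNNNGAA, the palindromic core bound by STAT factors, in capitals below. The windows are chr12:104214294-104214593 and chr12:104235897-104236196 of GRCm38.p6, plus strand, from RefSeq, again 250 bases before to 50 after the start.
Serpina3f: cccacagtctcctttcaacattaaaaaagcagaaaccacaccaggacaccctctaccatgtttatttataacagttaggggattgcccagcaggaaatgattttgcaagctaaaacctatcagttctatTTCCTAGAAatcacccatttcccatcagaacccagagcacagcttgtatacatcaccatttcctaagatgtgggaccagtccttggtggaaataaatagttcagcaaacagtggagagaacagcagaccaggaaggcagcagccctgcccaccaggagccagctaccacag
Serpina3g: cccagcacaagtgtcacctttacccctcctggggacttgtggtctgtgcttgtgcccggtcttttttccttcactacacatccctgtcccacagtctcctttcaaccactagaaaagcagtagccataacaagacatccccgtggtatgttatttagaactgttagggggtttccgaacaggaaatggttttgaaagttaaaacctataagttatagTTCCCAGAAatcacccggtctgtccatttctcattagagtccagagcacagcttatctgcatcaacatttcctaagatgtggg
Between the Serpina3f and Serpina3g windows, 83.7% of 202 aligned bases were identical. Promoter windows were found for 44 of the 52 members, the others being Serpina10, Serpina3k, Serpina4-ps1, Serpina6, Serpina9, Serpinb13, Serpinb1a and Serping1. A match to TTCNNNGAA, which reads the same on both strands, was present in 7 of the 44 (15.9%): Serpina11, Serpina1f, Serpina3f, Serpina3g, Serpinb2, Serpinb6a and Serpinb9c. Among all 27025 genes with a promoter window, 9.55% had one. Of the 7, only Serpina3g passed an unadjusted p of 0.05, which 9.28% of all features passed. The exact HNF1 palindrome was found in 0 of the 44 members and in 0.0111% of all genes. A pattern this rare could hardly be met among 44 windows. The count therefore does not tell whether serpin promoters hold HNF1 sites, and looser forms of the site were not searched.

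Kupffer cell and lymphocyte markers were set beside Serpina3g, since leukocytes can express it. Of 9 Kupffer cell markers 8 were lower in the knockout, with list medians of -0.20 to -0.12 in knockout livers and -0.40 to 0.24 in wild-type livers. Of 7 lymphocyte markers all were higher, with list medians of 0.13 to 0.27 in knockout livers and -0.10 to 0.09 in wild-type livers. Their part in the Serpina3g values was not tested. In tissue RNA, fewer cells of a type and less RNA per cell cannot be told apart.

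Hormone carriers form another group of clade A, without inhibitory activity. Serpina7, thyroxine-binding globulin, lies on the X chromosome. It had ratios of -0.64, -1.06 and -0.38 in knockouts 27, 31 and 33, and 0.14, -0.08, 0.50, -1.59 and 0.25 in wild types 14, 15, 21, 22 and 26. Wild type 22 was the lowest of all mice and the other 4 wild types lay above all knockouts. The difference of -0.54 ± 0.44 (adjusted p = 0.724 by limma) was -0.90 without wild type 22 (adjusted p = 0.115). Serpina6, corticosteroid-binding globulin, which carries glucocorticoids, stood at 0.30, 0.51 and -0.24 in the knockouts and between -0.31 and 0.17 in the wild types. Knockouts 27 and 31 lay above all wild types, while knockout 33 stood close to wild type 22, the lowest. The difference of 0.19 ± 0.17 was 0.02 without knockout 31 and 0.40 without knockout 33. Serpina12, vaspin, an adipokine that inhibits a kallikrein, gave -0.63, -0.30 and 0.22 in the knockouts against -0.54 to 0.82 in the wild types, a difference of -0.13 ± 0.33 that was 0.11 without wild type 22 and 0.07 without knockout 27.

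The largest difference of the family belonged to Serpina4-ps1, a transcribed pseudogene in the gene table and the mouse counterpart of the kallistatin gene. Its ratios were -0.52, 1.85 and 2.91 in knockouts 27, 31 and 33, and -0.56, 0.80, -0.55, 0.59 and -1.28 in wild types 14, 15, 21, 22 and 26. Knockouts 31 and 33 lay far above every wild type, whereas knockout 27 was near the level of wild types 14 and 21. The means were 1.41 ± 1.76 (SD, n = 3) in knockout and -0.20 ± 0.87 (SD, n = 5) in wild-type livers, and the difference of 1.61 ± 0.78 (adjusted p = 0.563 by limma) ran from 0.86 without knockout 33 to 2.58 without knockout 27.

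Serpina9 and Serpina11, which lie next to each other in the middle of the cluster, also had their high values in particular mice. Serpina9, known in human as centerin of germinal centre B cells, stood at -0.09, 0.42 and 1.58 in the knockouts and at -0.20, 0.15, -0.14, 0.77 and -0.42 in wild types 14, 15, 21, 22 and 26. Its difference of 0.61 ± 0.39 was 0.14 without knockout 33. Serpina11 stood at 0.29, 0.63 and 0.61 in the knockouts and at -0.38, -0.28, 0.01, 0.80 and -0.54 in wild types 14, 15, 21, 22 and 26. Wild type 22 was the highest of all mice and the other 4 wild types lay below all knockouts. The Serpina11 difference was 0.59 ± 0.28 (adjusted p = 0.56 by limma), and 0.81 without wild type 22 with an adjusted p of 0.0912.

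Across the 20 clade A members on chromosome 12, the mice differed in how many stood above the pool. The numbers were 7, 13 and 13 in knockouts 27, 31 and 33, and 6, 11, 11, 17 and 4 in wild types 14, 15, 21, 22 and 26. The highest and the lowest count both belonged to wild types.

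**Figure D3:**
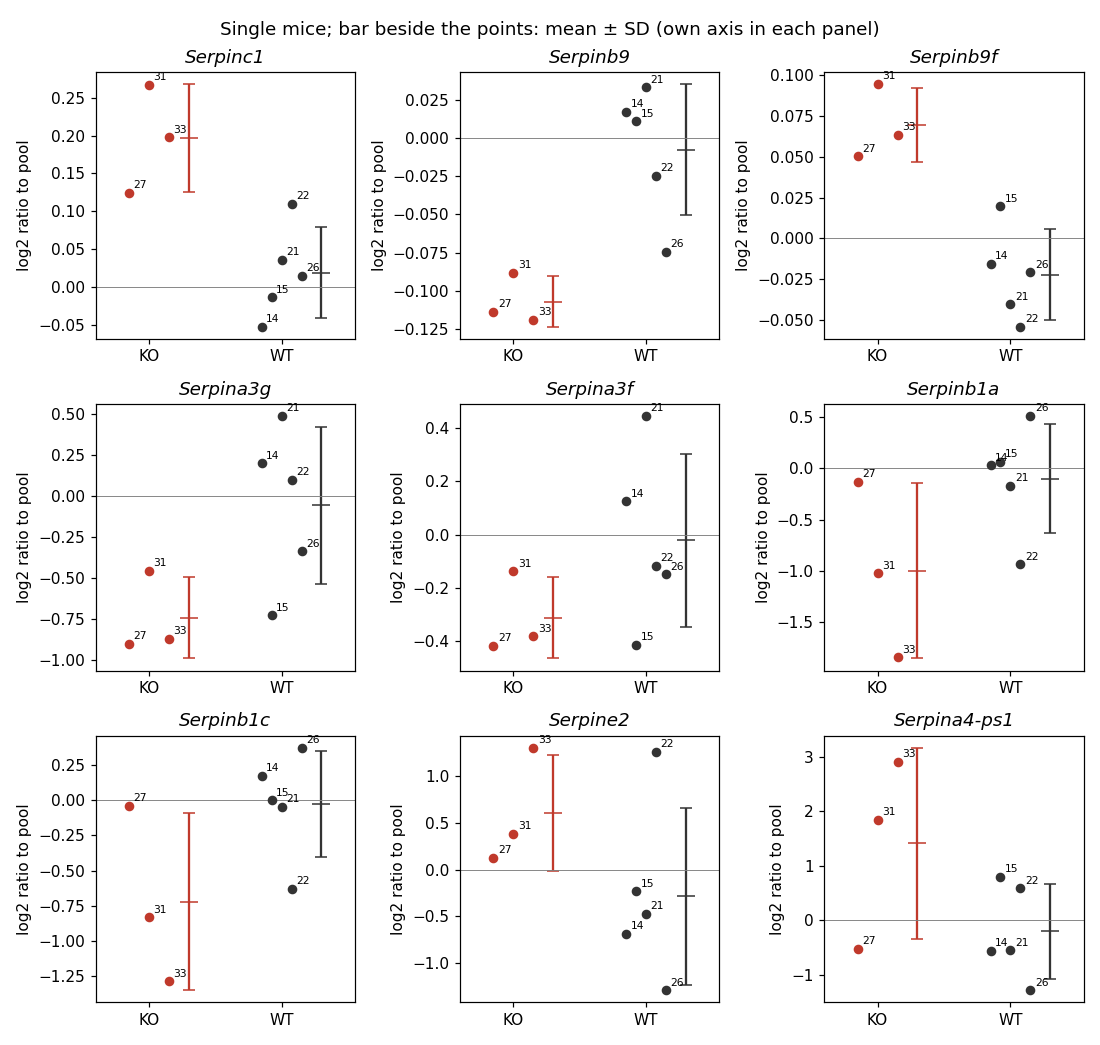
Log2 ratio to the wild-type pool (y axis, its own range in each panel) of 9 Serpin genes in single knockout (KO, red) and wild-type (WT, black) livers, numbered by mouse, with mean ± SD beside the points. KO and WT do not overlap in Serpinc1, Serpinb9 and Serpinb9f, over ranges of less than 0.35; in Serpinb1a, Serpinb1c and Serpine2 WT 22 lies among the KO livers.

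Clade B, the intracellular serpins, lay in 2 clusters, with 13 members on chromosome 13 and 8 on chromosome 1. Of the 21, 12 were higher and 9 lower with a median of 0.02, and the largest differences were those of Serpinb1a and Serpinb1c. Serpinb1a, the leukocyte elastase inhibitor, blocks neutrophil elastase, cathepsin G and proteinase 3, and in mice it is also released by hepatocytes and promotes the growth of pancreatic beta cells. Its ratios were -0.13, -1.02 and -1.85 in knockouts 27, 31 and 33, and 0.03, 0.06, -0.17, -0.94 and 0.51 in wild types 14, 15, 21, 22 and 26. Knockouts 31 and 33 lay below all wild types, with wild type 22 next to knockout 31, and knockout 27 sat among the other wild types.

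The mean of Serpinb1a was -1.001 ± 0.86 (SD, n = 3) in knockout and -0.10 ± 0.53 (SD, n = 5) in wild-type livers, a difference of -0.90 ± 0.41, 1.87-fold lower (adjusted p = 0.55 by limma). It ran from -1.34 without knockout 27 to -0.48 without knockout 33. Serpinb1c, a paralogue a short distance away on chromosome 13, stood at -0.04, -0.83 and -1.28 in knockouts 27, 31 and 33, and at 0.17, 0.00, -0.05, -0.63 and 0.37 in wild types 14, 15, 21, 22 and 26. The order of the mice was nearly that of Serpinb1a: knockouts 33 and 31 and wild type 22 were the 3 lowest and wild type 26 the highest. The difference was -0.69 ± 0.30 (adjusted p = 0.536 by limma), from -1.03 without knockout 27 to -0.41 without knockout 33. The third paralogue, Serpinb1b, gave -0.05 ± 0.07, and whether the probes of Serpinb1a and Serpinb1c each read 1 gene is uncertain.

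Neutrophils are rich in the targets of Serpinb1a and express it, so their markers were set beside it. Of 7 neutrophil markers 5 were lower and 2 higher in the knockout, 3 of them (Camp, Ngp and S100a8; 42.9%, beside 9.28% of all features) at an unadjusted p under 0.05. The list medians were -0.27, -0.02 and -0.17 in knockouts 27, 31 and 33, and 0.02, 0.10, -0.03, 0.13 and -0.12 in wild types 14, 15, 21, 22 and 26. Wild type 22, the lowest wild type in Serpinb1a, was the highest in this list, and knockout 27 the lowest. The part of neutrophils in the Serpinb1a values was not tested. Of 14 proteases of leukocytes and other cells that serpins can inhibit, 8 were higher and 6 lower with a median of 0.03. The lysosomal protease Ctsb alone passed an unadjusted p of 0.05 (difference -0.20 ± 0.07, adjusted p = 0.49 by limma). That is 7.14% of the list beside 9.28% of all features. Gzmm, a granzyme, stood at 0.09 ± 0.05 and Ctsg, cathepsin G, at 0.08 ± 0.04.

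Serpinb9 and Serpinb9f had small differences with little spread, and both were among the least variable 25% of features. Serpinb9 protects lymphocytes and other cells from their own granzyme B. It stood at -0.114, -0.088 and -0.119 in knockouts 27, 31 and 33, and at 0.017, 0.011, 0.033, -0.025 and -0.074 in wild types 14, 15, 21, 22 and 26. All knockouts lay below all wild types, wild type 26 being nearest (difference -0.10 ± 0.04, 1.07-fold lower, adjusted p = 0.525 by limma), and under quantile normalization the groups overlapped. Serpinb9f, a mouse paralogue, stood at 0.050, 0.094 and 0.063 in the knockouts, and at -0.015, 0.020, -0.040, -0.054 and -0.021 in wild types 14, 15, 21, 22 and 26. Here all knockouts lay above all wild types (difference 0.09 ± 0.04, 1.07-fold higher, adjusted p = 0.527 by limma). By the same exact permutation p was 0.0357 for Serpinb9 and 0.0179, again the smallest possible, for Serpinb9f, with no adjustment. Both genes were singled out by their low p in the same data, so these values are no separate support. Of the 6 Serpinb9 paralogues with a letter after the 9, 5 were higher and 1 lower, between -0.04 and 0.09.

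Serpinb6a, an inhibitor of cathepsin G inside leukocytes and other cells, gave 0.06 ± 0.08. The 8 clade B genes on chromosome 1, several of which are known from skin and other epithelia, lay between -0.08 and 0.18 with a median of 0.02, and none passed an unadjusted p of 0.05.

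Serpinh1, HSP47, stays in the endoplasmic reticulum as a chaperone that helps procollagen fold. Its ratios, the mean of 2 probes, were -0.29, -0.20 and -0.33 in knockouts 27, 31 and 33, and 0.17, -0.19, -0.23, -0.08 and 0.29 in wild types 14, 15, 21, 22 and 26. Wild type 21 lay inside the knockout range, wild type 15 just above it, and the other wild types higher. The difference was -0.27 ± 0.12 (adjusted p = 0.552 by limma). Its probes gave -0.21 ± 0.11 and -0.32 ± 0.14, and for the second probe all knockouts lay below all wild types.

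Collagen-producing stellate cells are a source of Serpinh1 in liver. Of 6 stellate markers 5 were lower and 1 higher in the knockout, with list medians of -0.60 to -0.04 in knockout livers and -0.40 to 0.23 in wild-type livers. Col1a1, a chain of type I collagen, stood at -1.75, -1.38 and -1.52 in the knockouts, and at 0.29, -0.02, -0.85, -1.66 and 0.93 in wild types 14, 15, 21, 22 and 26. In Col1a1 wild type 22 lay within the knockout range and wild type 26 was the highest, as it was for Serpinh1. The part of these cells in the Serpinh1 values was not tested. Serpini1, neuroserpin, an inhibitor of tissue plasminogen activator known from neurons, differed by 0.04 ± 0.06.

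Receptors, cofactors and folding factors of serpins were measured in 16 of 18 listed genes, with 8 higher, 8 lower and a median of 0.01, and 3 (18.8%, beside 9.28% of all features) passed an unadjusted p of 0.05. Sort1, a sorting receptor of the secretory pathway, stood at 0.67 ± 0.20 (adjusted p = 0.416 by limma), with knockouts at 0.24, 0.69 and 0.999 against wild types at -0.32 to 0.36. Asgr2, a subunit of the hepatocyte receptor that clears desialylated plasma glycoproteins, stood at 0.25 ± 0.09. Man1b1, a mannosidase that marks misfolded glycoproteins such as mutant alpha-1-antitrypsin for disposal, stood at -0.20 ± 0.08.

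The spread among wild-type livers was itself uneven within the family. The 5 widest members were Serpina1d (SD 0.96), Serpine2 (0.95), Serpina4-ps1 (0.87), Serpina7 (0.83) and Serpina12 (0.57), n = 5 wild types. In Serpina1d, Serpine2 and Serpina12 wild type 22 was the highest of the wild types, and in Serpina7 the lowest. By contrast, the SD of Serpinc1 was 0.06 and that of Serpinb9f 0.03. Wild type 22 had 9 of 52 Serpins beyond 0.5 in either direction (17.3%, beside 7.15% of named genes), and wild type 26 had 5 (9.62%, beside 2.71%). Knockouts 27, 31 and 33 had 4, 6 and 7 (7.69%, 11.5% and 13.5%, beside 2.87%, 3.59% and 6.25%).

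**Figure D4:**
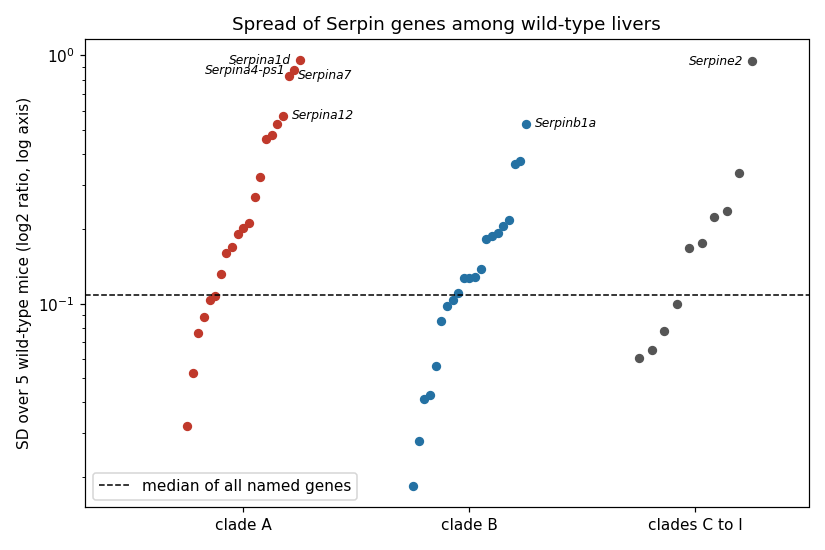
SD of the log2 ratio over the 5 wild-type livers (y axis, log scale) for each Serpin gene, grouped by clade and ordered by SD within a group; the dashed line is the median of all 19896 named genes (0.109). Above the line lie 15 of 21 genes of clade A and 13 of 21 of clade B; Serpina1d, Serpine2 and Serpina4-ps1 are the widest.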

How the data were processed

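Liver RNA from 3 knockout and 5 littermate wild-type mice was amplified with aminoallyl labelling and hybridised with Cy3 and Cy5 against a wild-type pool, per the labels. The series' design text mentions swapped dyes; how swapped arrays were merged, the background correction, the normalization and the image software stand in none of the sources used here. The deposited values are log10 ratios, 1 column per mouse, between -2 and 1.3438, with base and direction inferred from the values.

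Probes were named through the platform annotation (23283 with 1 symbol, 16273 with none), and symbols were updated through a gene table of GRCm38.p6 (16574 current, 6594 updated through a synonym held by 1 gene, 115 kept as listed). Values were turned to log2 and probes of one symbol averaged. All 36169 features were fitted in limma 3.58.1 (R 4.3.3; lmFit, eBayes, 1 value per mouse, arrays weighted equally), p-values were adjusted over all of them by Benjamini and Hochberg's method and the threshold was 0.05. Errors beside differences are standard errors of that fit. The fit was tested on simulated data. Groups came from the sample titles; separate mice are the replicates, and their numbers do not pair the genotypes.

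The members, gene lists and tests were chosen with earlier results of these data known. Named Serpins are the 10 with the lowest p, the 10 with the largest difference, the 5 with the widest wild-type spread and a list of well known members, 28 in all, with other members named singly after their values were seen. Of each other gene list the 3 genes with the lowest p were named where the list is described, apart from markers. Alternatives were probes kept singly, named genes only, array medians at 0, quantile normalization, array weights, the least variable 25% left out, the knockout sign turned, a robust prior, both widest arrays left out and each mouse left out.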

Additional observations from a re-analysis of the deposited data

Results flagged for a closer look

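Among the 52 Serpin genes, each tested for a wild-type mouse far from the other 4 by Dixon's criterion (0.71 for 5 samples), 4 had such a mouse, and chance alone flags about 1 in 20 groups. It was wild type 22 each time, the array with the widest spread over all probes. The share of all features with such a mouse was not computed, so the count cannot be set against it. Serpina1d stood at 2.12 in that mouse, with nearly the whole wild-type range lying between it and the next mouse. Serpina7 was at -1.59. Serpini2, a serpin known from the pancreas, was at 0.32, and Serpinb10, known from blood-forming cells, at -0.37; these last genes were named after their values were seen.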

How the results depend on the processing

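No Serpin passed an adjusted p of 0.05 by limma under any alternative run. The lowest adjusted p was 0.0705 with array weights (Serpinc1) and 0.0912 without wild type 22 (Serpina11), and unadjusted counts moved with weights and with single mice. The main count of 5 Serpins at an unadjusted p under 0.05 became 21 of 52 with array weights, where 20.4% of all features passed. It became 10 of 52 without both widest arrays, where 11.7% did. In both settings the share of Serpins was larger than that of all features. Normalization changed which members passed. With array medians at 0 it was 7 (1 higher, 6 lower), without Serpinb9f, where 9.32% of all features passed. With quantile normalization it was 5 (4 higher, 1 lower), without Serpina3g, Serpinb9 and Serpinb9f, where 7.95% of all features passed. With 1 mouse left out the count ran from 2 to 15 of 52, from below to above the share of all features. The 3 Serpins without overlap became 1 without the least variable features, where 44 members were left, Serpinb9 and Serpinb9f not among them. The count was 6 with the knockout sign turned and 14 without both widest arrays. In the same order, 6.75%, 10.8% and 23.4% of all features did not overlap. With 1 mouse left out the count was 4 to 11. Fewer mice alone make overlap rarer. The median difference of 0.05 was 0.034 with array medians at 0 and -0.063 with the knockout sign turned. With 1 mouse left out it was 0.02 to 0.07.

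Turning the sign of the knockout arrays reversed the difference of 27 of the 28 named genes, the exception being Serpina1d: Serpina10 -0.21, Serpina11 -0.44, Serpina12 0.34, Serpina1a -0.16, Serpina1b -0.18, Serpina1e -0.025, Serpina3f 0.33, Serpina3g 0.80, Serpina3k 0.12, Serpina3n 0.18, Serpina4-ps1 -1.21, Serpina6 -0.19, Serpina7 0.85, Serpina9 -0.67, Serpinb1a 1.10, Serpinb1c 0.74, Serpinb6a -0.061, Serpinb9 0.11, Serpinb9f -0.047, Serpinc1 -0.22, Serpind1 -0.11, Serpine2 -0.32, Serpinf1 -0.21, Serpinf2 -0.22, Serping1 -0.11, Serpinh1 0.28 and Serpini1 -0.075. Quantile normalization reversed Serpina12 (0.016), array weights Serpina1d (0.084), and leaving out both widest arrays Serpina1d (0.11) and Serpinb6a (-0.014). With 1 mouse left out, 3 named genes changed direction: Serpina12 ran from -0.36 to 0.11 (above 0 without wild type 22 or knockout 27), Serpina1d from -0.44 to 0.12 and Serping1 from -0.051 to 0.12. No paired analysis was possible because the genotypes share no mouse number. Over all features, 10 passed an adjusted p of 0.05, and 207 did with array weights, 6 to 65 with 1 mouse left out (65 without wild type 22), 6 with quantile normalization, 16 with probes kept singly, 17 without the least variable features and 19 without both widest arrays. Spot brightness was not used here, so how far a probe lay above background is unknown.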

Other observations

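Lists of factors known to act on liver serpin genes were measured beside the family. Of 18 listed regulators (cytokine receptors, STAT3 and its feedback inhibitor, C/EBP and hepatocyte nuclear factors), 16 were measured, 8 higher and 8 lower in the knockout with a median difference of 0.01. The forkhead factor Foxa1 alone passed an unadjusted p of 0.05, or 6.25% of the list beside 9.28% of all features. It had ratios of 0.25, 1.05 and 0.25 in knockouts 27, 31 and 33. In wild types 14, 15, 21, 22 and 26 the ratios were -0.21, 0.33, -0.12, -0.15 and 0.10 (difference 0.53 ± 0.20, adjusted p = 0.508 by limma). Onecut1, a liver transcription factor, stood at 1.16 ± 0.55 and Foxa3 at 0.38 ± 0.20.

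Growth hormone acts on the liver through STAT5, and a Serpina3 relative of rat is a classic target. Of 8 genes of this axis, 6 were higher and 2 lower with a median difference of 0.31. Stat5a stood at -0.48 ± 0.16 and was lower in all knockouts than in all wild types, while Socs2, a target that feeds back on the receptor, stood at 0.81 ± 0.35 with knockout 27 at -0.17 and knockouts 31 and 33 at 1.44 and 1.08. Igf1, the main circulating growth factor of the axis, stood at 0.47 ± 0.22. Adjusted p by limma was 0.471, 0.534 and 0.555 for these genes.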
